A study of Homo sapiens with 72 samples.

Results

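PEO1 cells, a line established from a high-grade serous carcinoma of the ovary, were treated with rucaparib, which is a fluorescent inhibitor of the poly(ADP-ribose) polymerases PARP1 and PARP2. The data described here are the poly(A) RNA profiles of PEO1 cells that were not sorted by drug fluorescence, in 4 groups: rucaparib-treated (8.5 µM) for 24 h, vehicle-treated (DMSO) for 24 h, rucaparib-treated for 2 h and vehicle-treated for 2 h. These are 36 of the 72 libraries of the series. The 3 libraries that share a group and a replicate number were added, which gave 4 groups of 3 summed samples, 12 of 24 in all. The other 12 came from cells sorted for low or high drug fluorescence. They did not enter the comparison itself but shared in the choice of genes to test, the scaling and the estimate of the spread. The question was which genes responded to the drug differently at 24 h and at 2 h. For each gene, the log2 change at 2 h (rucaparib over vehicle) was subtracted from that at 24 h, and the result is called the difference in response. All cells are of a single line, and they were scraped directly into lysis buffer, so that a change in the share of cells in a given state and a change within each cell cannot be told apart.

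PARP enzymes mark DNA breaks with chains of ADP-ribose, and inhibitors both block this signal and hold PARP on the DNA. Lesions that persist into replication are known to engage checkpoint kinases, p53 and its target CDKN1A, and to delay entry into mitosis. Such responses take hours, whereas early transcription factors and regulators of transcription elongation can move within minutes to a few hours. A response was said to emerge when the log2 change was at least 0.5 in size at 24 h and under 0.5 at 2 h, to fade in the opposite case, and to reverse when it was at least 0.5 in size at both times with opposite signs.

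The labelled cell type was checked against marker genes. Of 12 markers of serous ovarian epithelium 11 were expressed well enough to be tested. In each group 2 of the 12 were under 1 TPM (a length-corrected share of each library's reads) in every sample. The 12 summed to 13568 to 15096 TPM in rucaparib-treated cells at 24 h and 14131 to 16886 TPM in vehicle-treated cells at 24 h. At 2 h they summed to 12878 to 16540 TPM with rucaparib and 12910 to 15882 TPM with vehicle. Keratins made up much of these sums. With rucaparib at 24 h, KRT7 averaged 6310 TPM and KRT8 2135 TPM, against 117 TPM for MSLN and 10.3 TPM for MUC16. The sums thus show epithelial cells and do not by themselves establish serous ovarian origin. Leukocyte, fibroblast and endothelial markers summed to at most 28.7 TPM in any sample. Library properties moved with the contrast. The mean length of the transcripts that received reads was 2746, 2712 and 3230 bases in rucaparib-treated replicates 1, 2 and 3 at 24 h, against 3120, 3107 and 3231 bases in the vehicle-treated ones. At 2 h it was 2758, 2982 and 2890 bases with rucaparib and 2729, 2747 and 3078 bases with vehicle. Rucaparib-treated minus vehicle-treated cells thus differed by -374, -395 and -1 bases at 24 h in replicates 1, 2 and 3, and by 29, 235 and -188 bases at 2 h. The part of this property in the results was not tested. Counts of called list members are also given from a fit that takes this length as a covariate beside the replicate number.

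**Figure D1:**
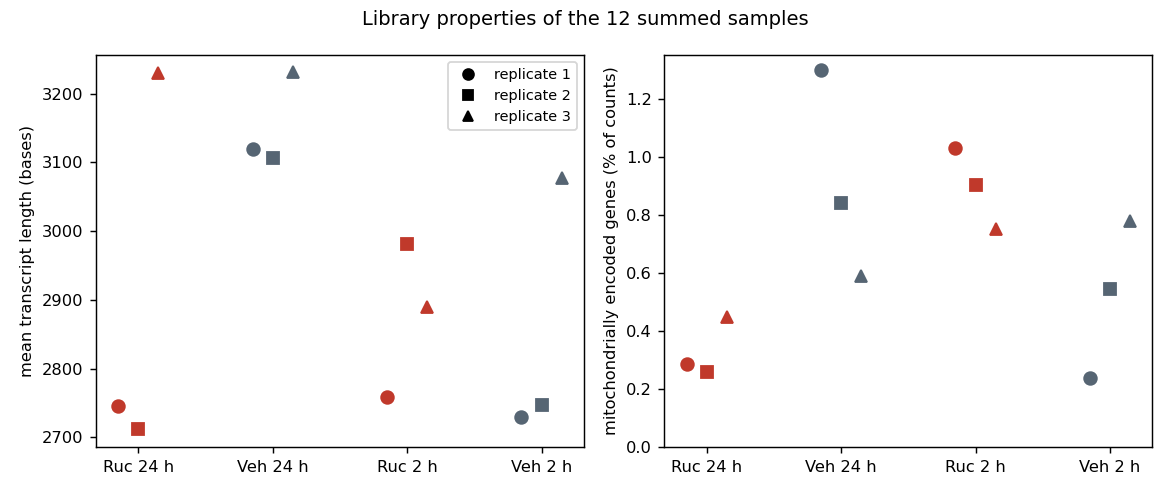
Mean transcript length in bases (left) and percentage of counts from mitochondrially encoded genes (right) in each of the 12 summed samples; red symbols are rucaparib-treated (Ruc) and grey symbols vehicle-treated (Veh) cells, and the symbol shape gives the replicate. Rucaparib-treated samples at 24 h held 0.260% to 0.448% mitochondrially encoded counts, below the 0.590% to 1.30% of vehicle-treated samples at 24 h, whereas replicates 1 and 2 were ordered the other way at 2 h.

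The response to rucaparib differed between the times for 28 of 20131 genes tested (0.139%), by edgeR's quasi-likelihood test over all genes and a Benjamini-Hochberg adjusted p under 0.05. The difference was positive for 20 genes (0.0993%) and negative for 8 (0.0397%). Of the 28, 20 emerged at 24 h (15 higher with rucaparib and 5 lower), 3 faded, 3 reversed and 2 were under 0.5 in size at both times. The sign was shared by all 3 replicates for each of the 28, 24 were also called at 24 h, and none was called at 2 h. The replicate values and the 24 h change enter the test that chose the 28. Genes chosen this way therefore tend to show such counts, and the share with a common sign over all genes was not taken. By themselves, the 24 h and 2 h comparisons called 674 genes at 24 h (3.35%; 442 higher and 232 lower with rucaparib, 2.20% and 1.15%) and 5 genes at 2 h (0.0248%; 1 higher and 4 lower, 0.00497% and 0.0199%). With the replicate numbers taken as pairs, on the basis of a general statement of the study that replicates came from different days, 3632 genes were called (18%; 1824 positive and 1808 negative, 9.06% and 8.98%), the 28 among them. With the pairing and mean transcript length as a covariate 762 were called (3.79%; 316 positive and 446 negative, 1.57% and 2.22%), again with all 28. The number of calls depended on single replicates: it was 1, 0 and 3142 without replicate 1, 2 and 3, and with the pairing it was 83, 0 and 5049. An unadjusted p under 0.05 was reached by 4220 genes.

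**Figure D2:**
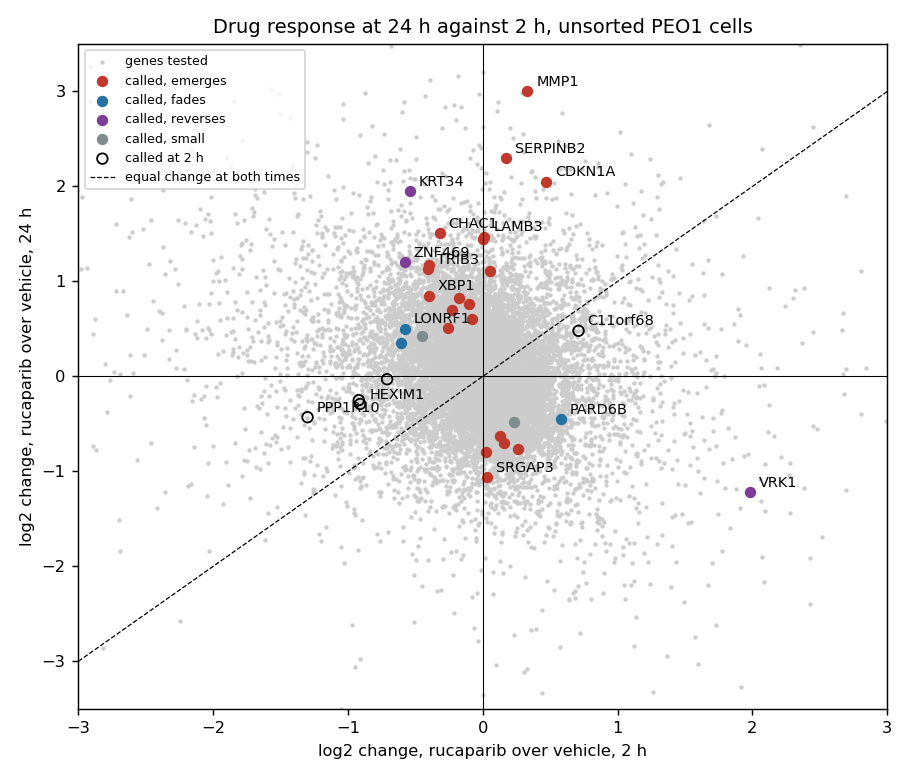
Log2 change with rucaparib over vehicle at 24 h (vertical) against 2 h (horizontal) for the genes tested (grey; a few lie beyond the axes); coloured points are the 28 genes called for a difference in response, by class, open circles the 5 genes called at 2 h, and the dashed line marks an equal change at both times. Most coloured points lie close to 0 at 2 h and away from 0 at 24 h, with MMP1 highest at 3.00 at 24 h against 0.33 at 2 h.

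The largest positive difference of the 28 genes was that of MMP1 (ENSG00000196611.4, chr11:102789920-102798160, GRCh38, minus strand), which encodes interstitial collagenase. At 24 h it had 6.99, 8.27 and 8.15 CPM (counts scaled to each library's total) with rucaparib, against 1.03, 1.06 and 0.835 CPM with vehicle; at 2 h it had 1.24, 1.31 and 1.28 CPM with rucaparib, against 0.907, 1.19 and 0.946 CPM with vehicle. The 3 treated samples at 24 h stood apart from the 9 others, which all lay between 0.835 and 1.31 CPM. The difference in response was 2.67 (standard error 0.35, adjusted p = 0.00252 from edgeR).

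SERPINB2 (ENSG00000197632.8, chr18:63871692-63903890, plus strand) encodes plasminogen activator inhibitor 2. It had 62.8, 81.7 and 54.8 CPM with rucaparib at 24 h, against 13.6, 15.1 and 11.7 CPM with vehicle. Its 2 h values were 16, 18.8 and 16 CPM with rucaparib, against 12.4, 17.6 and 15 CPM with vehicle. Again only the treated samples at 24 h were high, and the groups overlapped at 2 h. The difference was 2.13 (standard error 0.26, adjusted p = 0.00173 from edgeR). MMP1 and SERPINB2 were the only genes called when the fit was limited to the 12 unsorted samples, when counts were offset for transcript length and when log2(TPM + 1) was used. Single libraries of each summed sample lay within 1.78 times of each other for MMP1 and 1.60 times for SERPINB2.

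The promoter windows of genes that emerged were read from RefSeq's table (GRCh38.p14, 250 bases before to 50 bases after each annotated start), which held 16 of the 28 symbols. Windows of SERPINB2, CHAC1 and ASPM are shown because these genes stand for the groups described here and hold a motif of a factor known for that group. The SERPINB2 window has an AP-1 motif (TGANTCA on either strand) in capitals, bound by FOS and JUN proteins; this start lies inside the gene as annotated by GENCODE. The CHAC1 window has the element read by ATF4 and C/EBP proteins (TGATGNAA), and the ASPM window the CHR element (TTTGAA), which recruits the DREAM and MuvB complexes to cell cycle genes. In the CHAC1 and ASPM windows the capitals are the reverse complement of these letters. All motifs were searched on both strands, and the sites shown start 102, 209 and 113 bases before the annotated start.
SERPINB2, chr18:63887455-63887754, plus strand: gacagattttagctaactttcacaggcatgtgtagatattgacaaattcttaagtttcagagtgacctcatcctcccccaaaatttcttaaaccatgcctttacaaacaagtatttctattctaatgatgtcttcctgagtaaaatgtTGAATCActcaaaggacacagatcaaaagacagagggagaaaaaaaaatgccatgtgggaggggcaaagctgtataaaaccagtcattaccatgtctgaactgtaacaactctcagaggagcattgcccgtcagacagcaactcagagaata
CHAC1, chr15:40953221-40953520, plus strand: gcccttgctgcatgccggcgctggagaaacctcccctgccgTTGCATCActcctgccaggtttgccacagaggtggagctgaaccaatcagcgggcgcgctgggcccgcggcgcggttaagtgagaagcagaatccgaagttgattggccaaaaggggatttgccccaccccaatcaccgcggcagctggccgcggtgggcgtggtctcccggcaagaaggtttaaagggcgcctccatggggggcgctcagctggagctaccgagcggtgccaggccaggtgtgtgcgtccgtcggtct
ASPM, chr1:197146620-197146919, minus strand: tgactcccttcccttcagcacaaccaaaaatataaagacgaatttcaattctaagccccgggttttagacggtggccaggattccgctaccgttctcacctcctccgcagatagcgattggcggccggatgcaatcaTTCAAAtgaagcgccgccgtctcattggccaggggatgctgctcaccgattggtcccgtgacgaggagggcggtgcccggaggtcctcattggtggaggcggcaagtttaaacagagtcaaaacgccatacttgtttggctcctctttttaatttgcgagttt
The AP-1 motif occurred in 7.71% of all 35116 windows and in 3 of the 16 called genes with a window (LAMB3, LRRC20 and SERPINB2). The ATF4 element occurred in 3.62% of windows, in 2 of the 16 (CHAC1 and KRT34) and in 5 of 15 genes of the integrated stress response list. The CHR element occurred in 15.2% of windows and in 40 of 58 genes of the G2 and mitosis list (69%). A gene with several windows counted as holding a motif when any of them did; by that count the AP-1, ATF4 and CHR motifs were held by 9.37%, 4.46% and 18.2% of all 27305 genes in the table. Among 561 genes that emerged as higher with the pairing, the AP-1 motif was held by 7.66%, the ATF4 element by 1.96% and the CHR element by 8.02%. Each of these lies below its share of all genes. Other motifs searched went both ways in the 561 genes. The CRE motif was held by 5.53% (31 genes), against 2.25% of all genes. The NF-kB motif was held by 1.43% (8 genes), against 0.678% of all genes. The heat shock element was held by 0.178%, against 0.608% of all genes. The serum response element core was held by 0.00%, against 0.0439% of all genes. Among 527 genes that emerged as lower the CHR element was held by 25.6%. These matches describe the letters of the windows only.

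Other called genes encode proteins of the matrix, secreted factors and a keratin. LAMB3, the beta chain of laminin 332, had 674, 499 and 425 CPM with rucaparib at 24 h, against 230, 168 and 180 CPM with vehicle. At 2 h its ranges overlapped, at 246 to 303 CPM with rucaparib and 205 to 366 CPM with vehicle, and the difference was 1.46 (standard error 0.28, adjusted p = 0.0458 from edgeR). IL32, a cytokine induced by inflammatory signals, differed by 1.46 (adjusted p = 0.0499) and C1QTNF1, a secreted protein related to complement C1q, by 1.01 (adjusted p = 0.0135). KRT34, a hair keratin of a family of similar genes whose reads can be split among members, had 10.5, 7.37 and 4.22 CPM with rucaparib at 24 h, against 2.63, 1.76 and 1.31 CPM with vehicle; its difference was 2.49 (standard error 0.46). In the list of plasminogen system and matrix metalloproteinase genes 2 of 16 passed (MMP1 and SERPINB2), and with the pairing 5 were positive and none negative, 4 of them with length as a covariate as well. Of all genes 0.0993%, 9.06% and 1.57% were positive in these fits. The list's median difference was 0.12, beside 0.03 over all genes. MMP9, gelatinase B, had 25.3, 35.6 and 23.2 CPM with rucaparib at 24 h, against 12.3, 13.4 and 13.6 CPM with vehicle, with a difference of 1.09 (adjusted p = 0.0891, and 0.00387 with the pairing).

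Among the genes of growth factor and cytokine signalling listed, calls came only with the pairing. HBEGF, a ligand of the EGF receptor, had 190, 216 and 171 CPM with rucaparib at 24 h, against 48.4, 54.4 and 48.4 CPM with vehicle, and 153, 116 and 172 CPM with rucaparib at 2 h, against 81, 66.4 and 85.4 CPM with vehicle. Treated samples lay above vehicle at both times, by 1.93 at 24 h (adjusted p = 0.00204 from edgeR) and 0.92 at 2 h (adjusted p = 0.433 from edgeR) on the log2 scale. The difference in response of 1.01 had an adjusted p of 0.184, and of 0.0382 with the pairing. Of 9 EGF receptor ligands 3 were positive with the pairing, beside 9.06% of all genes, and none of these 3 with length as a covariate. In the list of chemokines, cytokines and NF-kB feedback genes 4 of 26 were positive with the pairing (1 with length as a covariate) and none negative, with a median of 0.38. These 15.4% lie near the 18% of all genes called in either direction with the pairing and above the 9.06% called as positive. RELB, an NF-kB subunit, differed by 1.21 (adjusted p = 0.129, and 0.00316 with the pairing). IL6 differed by 1.95 (adjusted p = 0.162, and 0.0197 with the pairing), but its vehicle sample of replicate 1 at 2 h had 51.8 CPM, against 12.1 and 11.2 CPM in the vehicle samples of replicates 2 and 3.

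**Figure D3:**
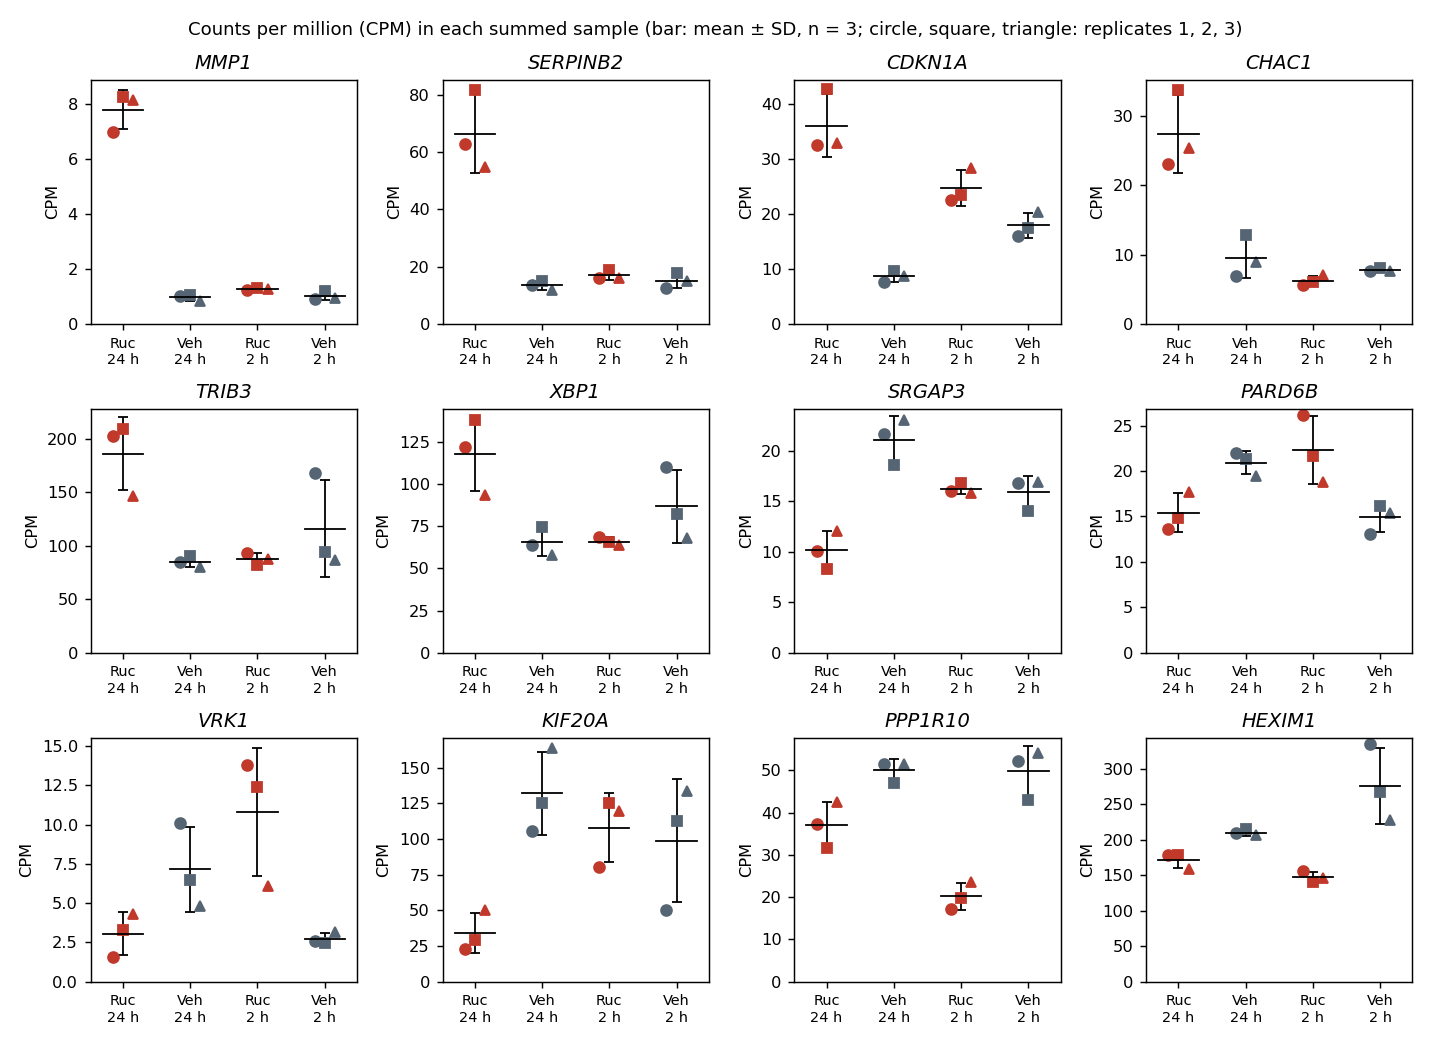
CPM of 12 genes in each summed sample (symbols: circle, square and triangle for replicates 1, 2 and 3; red, rucaparib-treated; grey, vehicle-treated), with the mean and SD of each group of 3. MMP1, SERPINB2 and CHAC1 are highest with rucaparib at 24 h, KIF20A has its lowest mean there, and PPP1R10 and HEXIM1 are lowest with rucaparib at 2 h.

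Genes of the integrated stress response had the highest median difference of the lists examined. This response raises translation of ATF4, which activates genes of amino acid supply and redox balance. Of its 16 genes tested, 2 were positive without the pairing (CHAC1 and TRIB3), 8 with it and 5 with length as a covariate, beside 0.0993%, 9.06% and 1.57% of all genes; none was negative, and the median difference was 1.29. The medians in replicates 1, 2 and 3 were 1.37, 0.92 and 0.86, and the median with length as a covariate was 0.97. Without the pairing 15 of the 16 genes had a difference above 0. The exception was DDIT4 at -0.59, and ATF4 itself was at 0.02. The median includes VLDLR and FGF21, which were near the floor, with group means of at most 0.298 and 0.0816 CPM. CHAC1, an enzyme that degrades glutathione, had 23, 33.8 and 25.3 CPM with rucaparib at 24 h, against 6.91, 12.8 and 8.99 CPM with vehicle. Its 2 h values were 5.59, 6.03 and 7.03 CPM with rucaparib, against 7.59, 8.09 and 7.63 CPM with vehicle. The groups did not overlap at either time but stood in opposite order, and the difference was 1.84 (standard error 0.31, adjusted p = 0.0284 from edgeR). TRIB3, a pseudokinase that restrains this response, differed by 1.54 (adjusted p = 0.0376). Its 202, 209 and 146 CPM with rucaparib at 24 h stood against 84.7, 90 and 79.8 CPM with vehicle. At 2 h it had 93.5, 82.3 and 87.3 CPM with rucaparib, against 168, 94.2 and 86.2 CPM with vehicle. The high vehicle sample of replicate 1 at 2 h thus enters its difference, which was 2.10, 1.41 and 0.85 in replicates 1, 2 and 3.

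XBP1, a transcription factor of the unfolded protein response of the endoplasmic reticulum, had 122, 138 and 93.6 CPM with rucaparib at 24 h, against 63.9, 74.4 and 58.1 CPM with vehicle. Its groups overlapped at 2 h, at 63.7 to 68.5 CPM with rucaparib and 67.7 to 110 CPM with vehicle, and the difference was 1.24 (standard error 0.25, adjusted p = 0.0499 from edgeR). Of 20 chaperone and unfolded protein response genes of this compartment 1 was called without the pairing (XBP1), 5 were positive and 2 negative with the pairing, 1 and 0 with length as a covariate, and the median was 0.04. The pairing called 9.06% of all genes as positive and 8.98% as negative. HSP90B1, the chaperone GRP94, had a difference of -1.59 (adjusted p = 0.151, and 0.0143 with the pairing), with 55.7 CPM in the vehicle sample of replicate 1 at 2 h beside 240 and 142 CPM in replicates 2 and 3. SDF2L1 and CRELD2, which act with these chaperones, had positive differences of 1.28 and 1.21, called only with the pairing, but -0.30 and -0.14 in replicate 3. In the list of serine, folate and amino acid transport genes 6 of 16 were positive with the pairing (9.06% of all genes) and 1 with length as a covariate (1.57%). Examples are the alanine transaminase GPT2 (0.67, adjusted p = 0.126, and 0.00643 with the pairing) and the mitochondrial folate enzyme MTHFD2 (0.67, adjusted p = 0.104, and 0.0127 with the pairing).

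Targets of p53 emerged in part. CDKN1A (ENSG00000124762.13, chr6:36676460-36687339, plus strand), the cyclin-dependent kinase inhibitor p21, had 32.5, 42.6 and 32.8 CPM with rucaparib at 24 h, against 7.67, 9.67 and 8.63 CPM with vehicle. At 2 h it had 22.5, 23.4 and 28.4 CPM with rucaparib, against 15.9, 17.4 and 20.3 CPM with vehicle. Treated samples were above vehicle at both times, and the difference was 1.59 (standard error 0.28, adjusted p = 0.0284 from edgeR). The vehicle level itself differed between the times: it averaged 8.65 ± 1.00 CPM at 24 h and 17.9 ± 2.21 CPM at 2 h (SD, n = 3 each), so that a change of -1.04 on the log2 scale in vehicle-treated cells added to one of 0.54 in rucaparib-treated cells. In 26 of the 28 called genes the vehicle arm moved against the sign of the difference. In 23 the rucaparib arm moved more than the vehicle arm. The vehicle arm enters the difference with a minus sign, so genes chosen for a large difference tend to show such a count. The share over all genes was not taken.

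Of 26 p53 targets tested 9 were positive and 1 negative with the pairing (5 and 1 with length as a covariate), beside 9.06% and 8.98% of all genes with the pairing, 1 was called without it, and the median difference was 0.32. GADD45A, a stress-induced inhibitor of growth, had 622, 685 and 377 CPM with rucaparib at 24 h, against 199, 151 and 110 CPM with vehicle; the difference was 1.74 (adjusted p = 0.134, and 0.00172 with the pairing). SESN2, an inhibitor of mTORC1 signalling that is also a target of ATF4, had 36.4, 34.2 and 33.1 CPM with rucaparib at 24 h, against 13.1, 12.3 and 12.4 CPM with vehicle, and a difference of 1.39 (adjusted p = 0.0623, and 0.00317 with the pairing). The pro-apoptotic BAX differed by 0.50 (adjusted p = 0.138, and 0.0368 with the pairing). CCNG1, cyclin G1, was the negative member at -0.56 (adjusted p = 0.136, and 0.00900 with the pairing). Called members of the p53 list thus had both signs, and SESN2 was also a member of the stress response list.

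Genes of G2 and mitosis had negative differences. Of 68 genes tested 64 had a difference below 0, with a median of -0.68; none was called by edgeR without the pairing (41 at an unadjusted p under 0.05), 45 were negative and none positive with it, and 32 and 0 with length as a covariate. Over all genes the pairing called 8.98% as negative. The median was 0.07 at 2 h and -0.61 at 24 h, and the median differences in replicates 1, 2 and 3 were -1.26, -0.50 and -0.36. KIF20A, a kinesin needed for cytokinesis, had 22.7, 29.6 and 50.2 CPM with rucaparib at 24 h, against 106, 125 and 164 CPM with vehicle. Its 2 h values were 80.4, 125 and 120 CPM with rucaparib, against 50.4, 113 and 134 CPM with vehicle. The groups were separate at 24 h and overlapped at 2 h, with a difference of -2.08 (standard error 0.51, adjusted p = 0.0891, and 1.59e-04 with the pairing). The spindle checkpoint kinase BUB1 differed by -1.84 (adjusted p = 0.123, and 0.00156 with the pairing) and ASPM, a protein of the spindle poles, by -1.56 (adjusted p = 0.0897, and 0.00916 with the pairing). Without replicate 1 the pairing left 5 negative members and without replicate 2 none, with medians of -0.43 and -0.84.

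DNA replication genes had a positive median of smaller size. Of 50 tested 12 were positive and 1 negative with the pairing, but 3 and 0 with length as a covariate, and the median was 0.30. Of all genes 9.06% and 8.98% were positive and negative with the pairing, and 1.57% and 2.22% with length as a covariate. FEN1, the flap endonuclease of lagging-strand synthesis, had 414, 354 and 212 CPM with rucaparib at 24 h, against 205, 185 and 171 CPM with vehicle. At 2 h it had 289, 204 and 222 CPM with rucaparib, against 400, 282 and 209 CPM with vehicle. Its difference of 1.12 (adjusted p = 0.120, and 0.0124 with the pairing) was 1.48, 1.41 and 0.22 in replicates 1, 2 and 3. LIG1, the ligase that seals Okazaki fragments, differed by 1.31 (adjusted p = 0.217, and 0.0404 with the pairing), and POLE2, a subunit of DNA polymerase epsilon, was the negative member at -0.74 (adjusted p = 0.216, and 0.0465 with the pairing).

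Repair genes act on the lesions that PARP inhibitors leave. Of 37 genes of homologous recombination, the Fanconi pathway and checkpoints 3 were positive and 2 negative with the pairing, 1 and 1 with length as a covariate, with a median of -0.07; 13.5% were thus called with the pairing, near the 18% of all genes. XRCC3, a recombination mediator, differed by 0.70 (adjusted p = 0.117, and 0.00539 with the pairing). WEE1, the kinase that restrains CDK1, was negative at -0.80 (adjusted p = 0.136, and 0.0207 with the pairing).

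Of 20 genes of the PARP family and of single-strand break repair 1 was positive and 3 negative with the pairing (20%, near the 18% of all genes), and none was called with length as a covariate. PARP10 differed by 1.23 and the interferon-induced PARP9 and PARP14 by -0.94 and -0.58 (adjusted p = 0.0413, 0.0373 and 0.0392 with the pairing). TIPARP, a mono-ADP-ribosyltransferase and target of the aryl hydrocarbon receptor, was in the reversing class with the pairing; it had 86.7, 89.4 and 155 CPM with rucaparib at 24 h, against 156, 155 and 179 CPM with vehicle, and 150, 156 and 175 CPM with rucaparib at 2 h, against 65, 112 and 153 CPM with vehicle. Its difference was -1.11 (adjusted p = 0.156, and 0.0150 with the pairing). CYP1B1, another target of that receptor, differed by -0.65 (adjusted p = 0.0383 with the pairing), and of 9 such targets 3 were negative with the pairing and none with length as a covariate. The pairing called 8.98% of all genes as negative. PARP1, the drug's own target and added here after its values were seen, was not called (difference -1.72, standard error 1.27, adjusted p = 0.429, and 0.106 with the pairing). It had 6.09, 23.2 and 68.1 CPM with rucaparib at 24 h, against 69.6, 65.1 and 85 CPM with vehicle, and 33.6, 79.5 and 64.5 CPM with rucaparib at 2 h, against 0.550, 47.5 and 73.2 CPM with vehicle. Its counts also varied between libraries of a single summed sample, as in replicate 2 with rucaparib at 24 h, whose 3 libraries had 0.247, 23.3 and 41.4 CPM.

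The 5 genes called at 2 h come next. None of the 5 was called for a difference in response without the pairing. They were chosen by values that enter the difference, so that their differences are descriptions. PPP1R10 encodes PNUTS, the subunit that directs protein phosphatase 1 to RNA polymerase II. At 24 h it had 37.3, 31.6 and 42.4 CPM with rucaparib, against 51.6, 47.1 and 51.6 CPM with vehicle, and at 2 h 17.2, 19.8 and 23.5 CPM with rucaparib, against 52.2, 43 and 54.2 CPM with vehicle. Treated samples were below vehicle at both times, by -0.43 at 24 h and -1.30 at 2 h on the log2 scale. HEXIM1, which with 7SK RNA holds the elongation kinase P-TEFb inactive, had 179, 179 and 159 CPM with rucaparib at 24 h, against 210, 215 and 206 CPM with vehicle, and 156, 140 and 146 CPM with rucaparib at 2 h, against 334, 267 and 228 CPM with vehicle. MEPCE, which caps 7SK RNA, had a log2 change of -0.25 at 24 h against -0.92 at 2 h, and CBX2, a Polycomb protein, had -0.03 at 24 h against -0.71 at 2 h. All 4 lay nearer to 0 at 24 h, by 0.87, 0.62, 0.67 and 0.68 for PPP1R10, HEXIM1, MEPCE and CBX2.

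C11orf68 was the gene that was higher with rucaparib at 2 h. It had 98.1, 97.2 and 78.3 CPM with rucaparib at 24 h, against 65.5, 67.4 and 63.1 CPM with vehicle, and 101, 107 and 107 CPM with rucaparib at 2 h, against 56.8, 69.3 and 66.6 CPM with vehicle. The groups were separate at both times, and the change was 0.48 at 24 h and 0.71 at 2 h (adjusted p = 0.0204 and 0.0121 from edgeR). Its difference was -0.22 (adjusted p = 0.386, and 0.243 with the pairing, from edgeR). The response of C11orf68 was thus still present at 24 h, and it falls in the fading class only through the bound of 0.5. In the list of P-TEFb, 7SK and PP1-PNUTS genes, which was drawn up with the 2 h calls known, 6 of 20 were positive and 1 negative with the pairing (3 and 0 with length as a covariate), 4 of them by fading. The pairing called 9.06% of all genes as positive and 8.98% as negative. CCNT2, a cyclin of P-TEFb, was the negative member at -1.0 (adjusted p = 0.140, and 0.0260 with the pairing); its change was -0.42 at 24 h and 0.58 at 2 h.

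**Figure D4:**
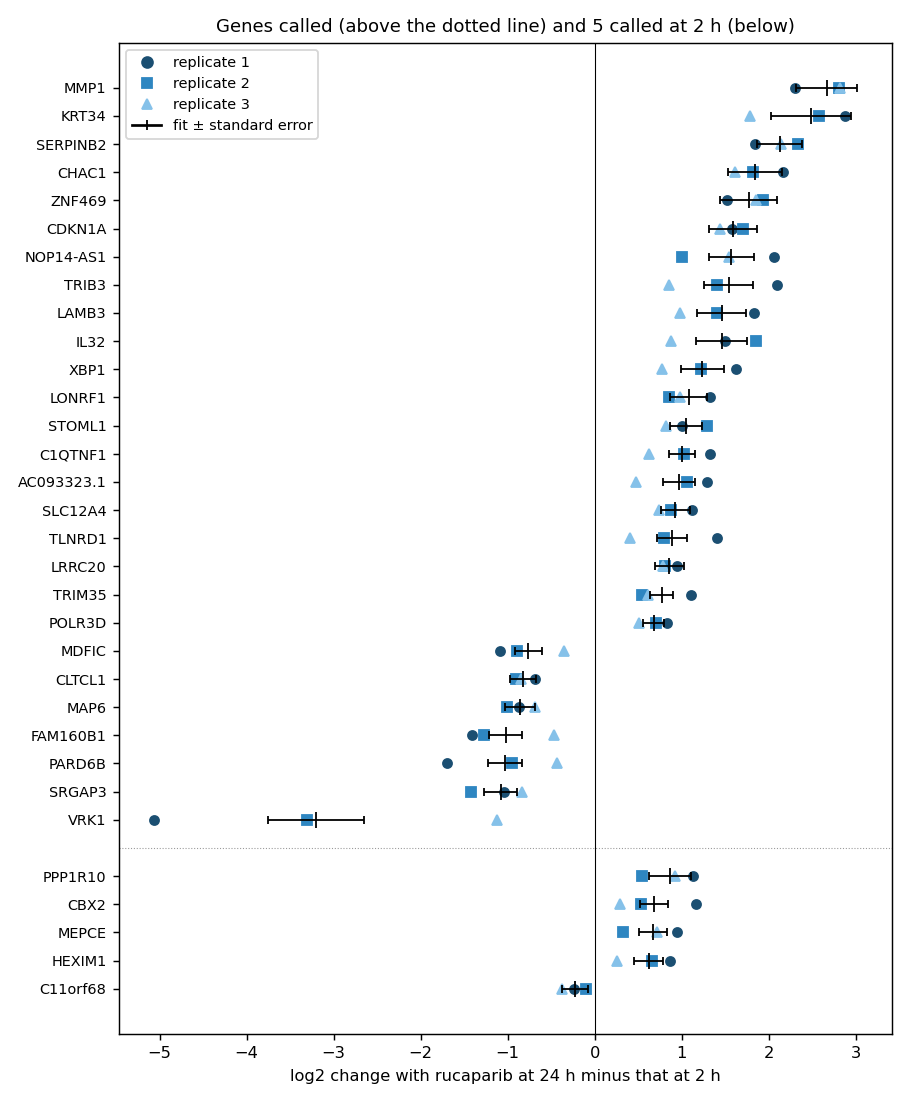
Difference in response (log2 change with rucaparib at 24 h minus that at 2 h) for the called genes described here, above the dotted line, and the 5 genes called at 2 h, below it; blue symbols are the 3 replicates, and black bars the estimate with its standard error. All 3 replicates lie on the same side of 0 for every gene shown, and replicate 3 is often nearest to 0. The replicate values enter the tests by which these genes were chosen.

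Some genes of the fading class had a vehicle sample far from the others. SMOX, spermine oxidase, had 13, 13.4 and 14 CPM with rucaparib at 2 h, against 87.2, 19.6 and 14 CPM with vehicle. RGS2, a brake on G protein signalling, had 3.22, 1.41 and 1.79 CPM with rucaparib at 2 h, against 25.6, 3.09 and 2.42 CPM with vehicle. In both genes the vehicle sample of replicate 1 stood far above the rest, and neither was called without the pairing (differences 1.97 for SMOX and 2.37 for RGS2, adjusted p = 0.112 and 0.215). With the pairing the adjusted p were 0.0325 and 0.0320, and with length as a covariate 0.181 and 0.158. EPOP, a partner of Polycomb repressive complex 2 and elongin, had 8.04, 9.96 and 6.95 CPM with rucaparib at 24 h, against 6, 6.47 and 5.67 CPM with vehicle, and 4.97, 4.31 and 4.23 CPM with rucaparib at 2 h, against 12.5, 7.01 and 5.79 CPM with vehicle. Its groups were separate at both times and in opposite order, with a difference of 1.36 (adjusted p = 0.0862, and 0.00864 with the pairing).

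Of the 28 called genes 3 faded by their estimates, although none of the 3 was called at 2 h. The adjusted p at 2 h were 0.243 for PARD6B, 0.323 for LONRF1 and 0.138 for AC093323.1 from edgeR. None was called at 24 h either (adjusted p = 0.0724, 0.0649 and 0.111 from edgeR). In all 3 the estimates had opposite signs at the times. PARD6B, a scaffold of the cell polarity complex, had 13.6, 14.8 and 17.7 CPM with rucaparib at 24 h, against 22, 21.3 and 19.5 CPM with vehicle, and 26.2, 21.7 and 18.8 CPM with rucaparib at 2 h, against 13.1, 16.1 and 15.4 CPM with vehicle. The groups were separate at both times and in opposite order, with changes of -0.45 at 24 h and 0.58 at 2 h, so that the class depends on the bound of 0.5. Its difference was -1.03 (standard error 0.19, adjusted p = 0.0376 from edgeR). LONRF1, a RING finger protein, had a log2 change of 0.50 (just under the bound) at 24 h against -0.58 at 2 h, and the clone-named gene AC093323.1 had 0.35 at 24 h against -0.61 at 2 h. Among the 138 genes of the fading class with the pairing, 131 had the same sign in 3 of 3 replicates. In the emerging class 1248 of 1507 genes did, and in the reversing class 352 of 384. The replicate values also enter the choice of these genes.

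The estimates of 3 of the 28 genes were past 0.5 with opposite signs at the times, although none of the 3 was called at 2 h (adjusted p = 0.138 for VRK1, 0.695 for ZNF469 and 0.874 for KRT34 from edgeR). VRK1 was not called at 24 h either (adjusted p = 0.0802), and KRT34 was in the emerging class with the pairing. VRK1, a nuclear kinase of chromatin and the nuclear envelope, had 1.60, 3.27 and 4.31 CPM with rucaparib at 24 h, against 10.1, 6.45 and 4.84 CPM with vehicle. Its 2 h values were 13.8, 12.4 and 6.11 CPM with rucaparib, against 2.56, 2.46 and 3.15 CPM with vehicle. The order of the groups turned round between the times in every replicate, and the difference was -3.20 (standard error 0.55, adjusted p = 0.0284 from edgeR). Its counts were unstable between libraries, up to 27.4 times within a summed sample (0.357, 8.87 and 9.78 CPM in the libraries of replicate 2 with vehicle at 24 h), where 25 of the called genes stayed within 2.59 times. ZNF469, a zinc finger gene linked to corneal collagen, reversed in the other direction at 2.04, 1.61 and 1.73 CPM with rucaparib at 24 h, against 1.01, 0.697 and 0.640 CPM with vehicle, and 0.512, 0.420 and 0.659 CPM with rucaparib at 2 h, against 0.741, 0.725 and 0.905 CPM with vehicle. Its difference was 1.77 (standard error 0.33, adjusted p = 0.0376 from edgeR), with single libraries up to 6.98 times apart. KRT34, described above, was the other, with changes of 1.95 at 24 h and -0.54 at 2 h.

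Genes that emerged as lower with rucaparib were 5. SRGAP3, a GTPase-activating protein of the SLIT and ROBO pathway, had 10.1, 8.33 and 12.1 CPM with rucaparib at 24 h, against 21.7, 18.6 and 23.1 CPM with vehicle, and 16, 16.8 and 15.8 CPM with rucaparib at 2 h, against 16.8, 14 and 16.9 CPM with vehicle. The groups overlapped at 2 h, and SRGAP3 fell at 24 h (log2 change -1.06), with a difference of -1.08 (standard error 0.19, adjusted p = 0.0284 from edgeR). CLTCL1, a clathrin heavy chain, differed by -0.82 (adjusted p = 0.0376), MAP6, which stabilises microtubules, by -0.86 (adjusted p = 0.0499), FAM160B1 by -1.02 (adjusted p = 0.0376) and MDFIC, a regulator of transcription and ion channels, by -0.76 (adjusted p = 0.0499). POLR3D, a subunit of RNA polymerase III, had 55.7, 59.8 and 52.6 CPM with rucaparib at 24 h, against 37.1, 37.8 and 36.2 CPM with vehicle, and overlapped at 2 h (difference 0.68, standard error 0.12, adjusted p = 0.0284). SLC12A4, a potassium-chloride cotransporter, differed by 0.93, the ubiquitin ligase TRIM35 by 0.77, the leucine-rich repeat gene LRRC20 by 0.86, the stomatin relative STOML1 by 1.05 and TLNRD1, an actin-bundling protein, by 0.89 (adjusted p = 0.0322, 0.0284, 0.0499, 0.0284 and 0.0376). NOP14-AS1, an antisense transcript of NOP14 that shares its locus with that gene, differed by 1.57 (adjusted p = 0.0284).

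The mitochondrially encoded genes held the largest negative median, -2.43 over 13 genes, and their replicates lay furthest apart. None was called by edgeR without the pairing (11 at an unadjusted p under 0.05), 12 were negative with it (11 of them reversing), and none with length as a covariate. The pairing called 8.98% of all genes as negative. MT-CYB, cytochrome b, had 94, 117 and 293 CPM with rucaparib at 24 h, against 854, 601 and 436 CPM with vehicle. Its 2 h values were 704, 677 and 563 CPM with rucaparib, against 77.7, 343 and 563 CPM with vehicle. The median differences of the list were -4.68, -2.52 and -0.41 in replicates 1, 2 and 3. MT-ATP6, a subunit of ATP synthase, differed by -2.93 and MT-ND5, a subunit of complex I, by -2.60 (adjusted p = 0.0891 and 0.129, and 0.0108 and 0.0155 with the pairing). These genes have copies in the nuclear genome that can share reads. Beside them stand the mean transcript lengths, whose difference of differences was -403, -630 and 187 bases in replicates 1, 2 and 3, and the part of that property was not tested.

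**Figure D5:**
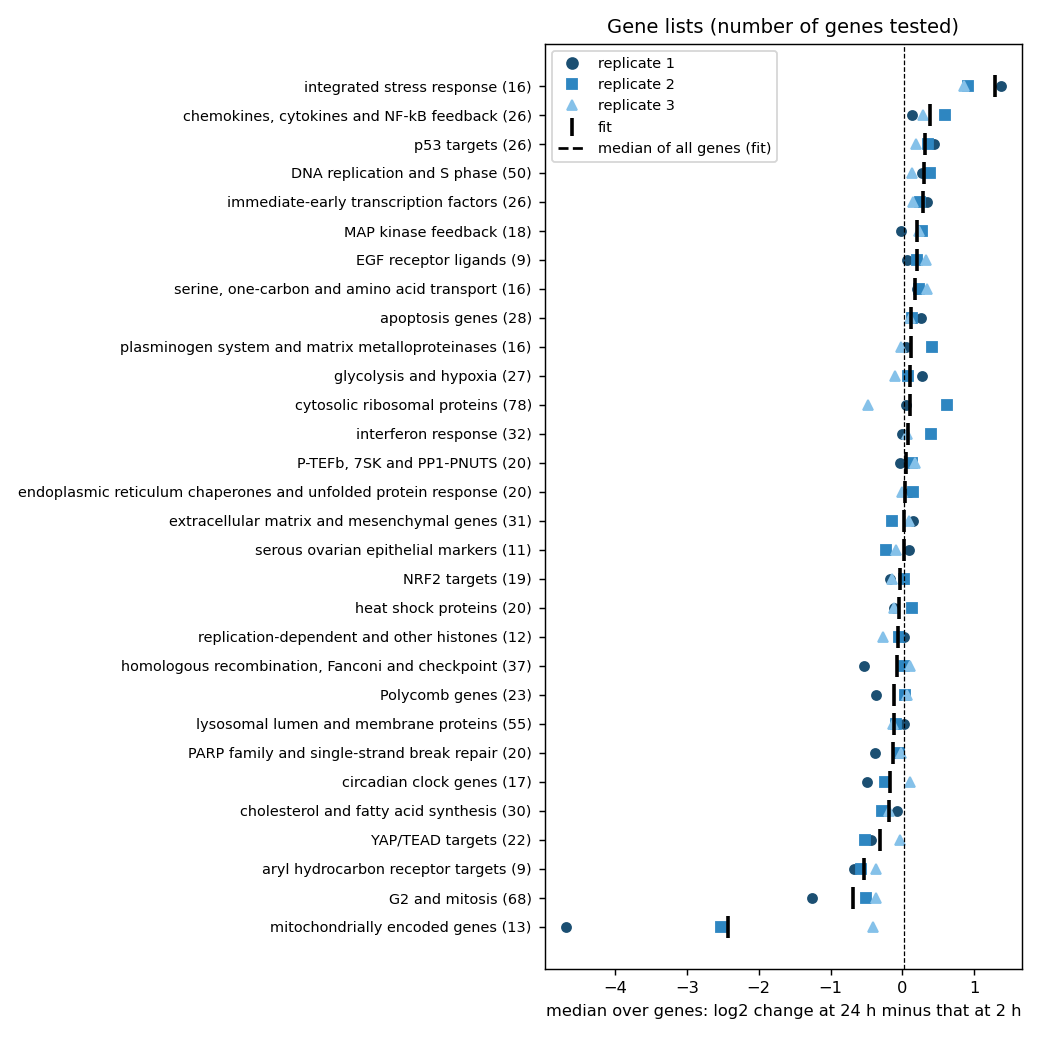
Median difference in response over the genes of each list with at least 9 genes tested (number in brackets); blue symbols are the 3 replicates, black marks the fit and the dashed line the median of all genes, 0.03. The integrated stress response lies highest at 1.29 and the mitochondrially encoded and G2 and mitosis lists lowest at -2.43 and -0.68.

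Lists of other functions had medians between -0.31 and 0.29 with calls of both signs or few calls. Beside their counts stand the shares of all genes: 9.06% positive and 8.98% negative with the pairing, and 1.57% and 2.22% with length as a covariate. Cytosolic ribosomal proteins had a median of 0.10, with 11 of 78 negative with the pairing, 3 with length as a covariate, and replicate medians of 0.05, 0.62 and -0.48. RPL23 was among the negative ones, with a difference of -1.03 (adjusted p = 0.178, and 0.0220 with the pairing). Lysosomal lumen and membrane genes had 7 positive and 11 negative of 55 with the pairing, 0 and 3 with length as a covariate, and a median of -0.12. The lysosomal glucosidase GAA differed by 0.72 (adjusted p = 0.0976, and 0.0172 with the pairing) and the membrane protein LAMP2 by -0.71 (adjusted p = 0.205, and 0.00518 with the pairing). In the cholesterol and fatty acid synthesis list 6 of 30 were negative and 1 positive with the pairing, 1 and 0 with length as a covariate, with a median of -0.18. The interferon list held 5 of each sign among 32 with the pairing and none with length as a covariate. Among epithelial markers MUC16, the source of the CA125 antigen, differed by -1.43 and mesothelin, MSLN, by 1.12 (adjusted p = 0.134 and 0.194, and 0.0337 and 0.0499 with the pairing). MSLN was at -0.04 in replicate 3. With length as a covariate neither was called (adjusted p = 0.174 for MUC16 and 0.358 for MSLN from edgeR). Of the 11 markers tested 2 were positive and 2 negative with the pairing, and 0 and 1 with length as a covariate. Targets of YAP and TEAD, which include genes of cell contact and spreading, had 3 positive and 7 negative of 22 with the pairing, 1 and 3 with length as a covariate, and a median of -0.31. With the pairing Polycomb genes had 6 positive and 5 negative of 23, immediate-early transcription factors 3 and 0 of 26 with a median of 0.29, MAP kinase feedback genes 3 and 0 of 18, and apoptosis genes 4 and 0 of 28. With length as a covariate these were 0 and 1, 0 and 0, 0 and 0, and 2 and 0. The immediate-early, MAP kinase feedback and apoptosis lists thus had 11.5%, 16.7% and 14.3% called with the pairing, all as positive. Each share lies below the 18% of all genes called in either direction and above the 9.06% called as positive. With the pairing heat shock proteins had 2 positive and 1 negative of 20, NRF2 targets 0 and 1 of 19, glycolysis and hypoxia genes 2 and 1 of 27, extracellular matrix genes 2 and 2 of 31, histones 3 and 1 of 12 and circadian clock genes 0 and 1 of 17; with length as a covariate these were 0 and 1, 0 and 1, 0 and 0, 1 and 1, 0 and 0, and 0 and 1. Leukocyte, fibroblast and endothelial markers had none of 2, 3 and 4 called with the pairing by edgeR, and at an unadjusted p under 0.05 they had 0, 1 and 0.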

How the data were processed

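RNA was extracted from PEO1 cells, poly(A) libraries were made with a strand-specific kit and sequenced on an Illumina instrument. The authors deposited a Salmon table for each library, whose columns are estimated counts and TPM of every transcript; per the submitters' processing notes cutadapt 4.7, DESeq2 1.44.0 and GRCh38 were also used. The version of Salmon and its transcript set are not given in the sources used here. Unsorted libraries held 22092472 to 38899905 estimated reads (median 33431403), and 7.53% to 8.87% fell on transcripts that matched no gene and were left out. Genes were assigned through GENCODE 29 to 194437 of 257369 transcripts, and 11546 more through gene symbols.

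Estimated counts were summed over transcripts and over the 3 libraries of a group and replicate number, since the study's reporting summary describes replicates on different days with technical repeats, and rounded. This statement does not name these RNA libraries; if replicates were not separate cultures, p-values measure technical spread only. Chi-square values per degree of freedom, over genes of 50 counts or more, were at least 5.85 between libraries of a summed sample and 37.7 between summed samples of a group, so none was a copy. All 24 summed samples entered a single edgeR 4.0.16 fit (R 4.3.3, filterByExpr, TMM, a coefficient per group), and the contrast was tested by quasi-likelihood with Benjamini-Hochberg adjustment over 20131 genes. Replicate numbers were taken as pairs in a second fit: deviations from group means correlated between same-numbered unsorted samples with a median of 0.497 (-0.268 to 0.891, 18 pairs) and between others with a median of -0.305. TPM values served for marker levels and for a limma 3.58.1 alternative on log2(TPM + 1). DESeq2 1.42.0 was another alternative. Further alternatives changed the samples, filter, scaling, length correction, library sums and replicates.

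Genes were named by rule: all 28 called with a mean of at least 1 CPM in a group; the largest differences, fading and reversing genes with the pairing, at 5 CPM or more; the genes called at 2 h; and up to 3 members per list and direction with the pairing. A part of these is described; leading genes that are pseudogenes, readthrough or clone-named transcripts were left out as uncertain. Members, lists and motifs were chosen with earlier results of these data known. Some genes that the rule names are not reported here.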

Additional observations from a re-analysis of the deposited data

Results flagged for a closer look

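A test of the difference itself set apart the drug response at 24 h and at 2 h in 28 genes. The difference in response (log2, 24 h minus 2 h) was -3.20 for VRK1, -1.08 for SRGAP3, -1.03 for PARD6B, -1.02 for FAM160B1, -0.86 for MAP6, -0.82 for CLTCL1 and -0.76 for MDFIC. It was 0.68 for POLR3D, 0.77 for TRIM35, 0.86 for LRRC20, 0.89 for TLNRD1, 0.93 for SLC12A4, 0.97 for AC093323.1, 1.01 for C1QTNF1, 1.05 for STOML1, 1.08 for LONRF1 and 1.24 for XBP1. It was 1.46 for IL32, 1.46 for LAMB3, 1.54 for TRIB3, 1.57 for NOP14-AS1, 1.59 for CDKN1A, 1.77 for ZNF469, 1.84 for CHAC1, 2.13 for SERPINB2, 2.49 for KRT34 and 2.67 for MMP1. Each of these had the same sign in 3 of 3 replicates, whose values enter the test that chose them.

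Single libraries stood far from the others of their group of 9 in 4 of 20 groups of values examined, where chance gives about 1 in 20. These were the highest total with vehicle at 24 h (38009444 estimated reads), the highest share of mitochondrially encoded counts with rucaparib at 2 h (1.65%), and the lowest total (22092472 estimated reads) and the highest number of genes detected (26761) with vehicle at 2 h. Without the vehicle library of lowest total at 2 h, an alternative chosen after seeing the data, 47 genes were called for a difference in response, and all 28 were among the calls.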

How the results depend on the processing

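Counts of genes called for a difference in response, at 24 h and at 2 h were 28, 674 and 5. They were 3632, 4829 and 29 with the replicate block; 2, 129 and 0 with the 12 unsorted samples only, and 237, 2766 and 1 with these and the replicate block; 877, 2078 and 97 with DESeq2, and 5025, 5856 and 417 with DESeq2 and the block; 34, 653 and 6 with DESeq2's size factors in edgeR; 141, 473 and 19 with no filter on low counts (44576 genes tested); 75, 974 and 6 at a mean of at least 1 CPM; 2, 114 and 1 with the length offset; 2, 75 and 1 with log2(TPM + 1) in limma; 4389, 5143 and 601 with 9 libraries per group taken as samples; 650, 1833 and 94 with limma-voom and a random effect; 762, 1181 and 231 with the block and mean transcript length as a covariate; 296, 616 and 8 without libraries under 2800 bases. Without the vehicle library of lowest total at 2 h, chosen after seeing the data, they were 47, 923 and 6, and 3408, 5414 and 53 with the block. Leaving out each replicate in turn gave 1, 0 and 3142 calls for a difference in response without the block and 83, 0 and 5049 with it, 3 to 2790 and 73 (1783 without replicate 1) to 4660 at 24 h, and 0 and 0 to 5 at 2 h. For the counts of 0 for a difference in response, 1360 genes (without replicate 2) and 3697 genes (with the block) had an unadjusted p under 0.05; at 2 h, 938 did with the unsorted samples, and 710, 1067 and 2223 without replicates 1, 2 and 3, with 2218 for the block without replicate 2. Of the 28 genes, 28 remained called with the block, with length as a covariate, with either DESeq2 fit and without replicate 3, 26 with the random effect and without libraries under 2800 bases, 23 with the unsorted samples and the block, 21 with no filter, 2 with the unsorted samples only, the length offset or log2(TPM + 1), and 0 without replicate 1 or 2 (15 and 0 with the block). With the length offset and with log2(TPM + 1), 1 of the 28 turned its sign; none of the genes named did under the alternatives run. The fit with 9 libraries per group treats technical repeats as samples. The cause of the changes in count was not tested.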
